A study of Mus musculus with 18 samples.

Results

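RSM-932a (RSM), an inhibitor of choline kinase, was compared with vehicle (Veh) in macrophages polarized with IL-4 (M[IL-4]). These 6 libraries, 3 per group, were the members chosen from the 18 libraries of the series, which also holds naïve cells (M[0]) and cells given the choline uptake inhibitor hemicholinium-3 (HC3). Bone marrow-derived macrophages (BMDM) were grown for 7 days in L929-conditioned medium from 12-week-old female C57BL/6J mice. Veh cells received 0.1% DMSO and RSM cells 5 µM RSM-932a for 24 h, and both then received 20 ng/mL IL-4 for a further 24 h. HC3 cells received 250 µM of that inhibitor on the same schedule, and M[0] cells had no IL-4 in the second 24 h. The labels name 3 individual mice as the source. Each p-value measures the spread between libraries within groups, pooled over the 6 groups of the series, with no term for mouse. Read pairs were counted per gene after poly-T selection of mRNA, and the libraries held 18479307 to 18911300 counts in Veh M[IL-4] and 18910910 to 19522255 in RSM M[IL-4]. Of 55385 genes listed, 14979 reached the minimum of 10 counts in 2 or more of the 18 libraries and were tested.

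Choline kinase phosphorylates choline to phosphocholine in the opening step of the CDP-choline pathway, which makes phosphatidylcholine, the main phospholipid of most mammalian membranes. IL-4 binds its receptor on macrophages, JAK kinases phosphorylate STAT6, and STAT6 then acts with factors such as IRF4 and EGR2 to switch on genes of alternative activation. The comparison asks how the transcripts of IL-4-treated macrophages differ when choline kinase has been inhibited in the 24 h before IL-4.

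Levels are given in CPM (a gene's counts divided by the library total after TMM scaling) for libraries 1, 2 and 3 in that order, and can be compared between libraries but not between genes, since they are not divided by gene length. A gene was said to rise or fall where the edgeR quasi-likelihood test gave a Benjamini-Hochberg false discovery rate (FDR) under 0.05 and the log2 fold change (RSM over Veh, ± its standard error) was at least 1 in size. By this rule 1655 genes changed (11.0% of those tested), of which 756 rose (5.05%) and 899 fell (6.00%). The median log2 fold change was 1.54 among the genes that rose and -1.65 among those that fell, against 0.02 over all tested genes. With the FDR alone, 3011 genes (20.1%) were higher and 2774 (18.5%) lower in RSM. The 3 RSM libraries lay wholly above or wholly below the 3 Veh libraries for 6977 tested genes (46.6%), so a lack of overlap alone was common. An exact permutation test of 3 against 3 libraries cannot go below p = 0.1. The tissue label was met by macrophage markers, since *Csf1r*, *Adgre1*, *Cd68*, *Lyz2* and *Mertk* were all expressed. Of 25 identity genes 2 fell, *Cx3cr1* and *Aif1*, and none rose (8% called, against 11.0% of all tested genes). By the FDR alone 5 of the 25 were higher and 10 lower.

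One of the largest rises was in *F5*, which encodes coagulation factor V. *F5* read 0.269, 0.174 and 0.168 CPM in the Veh libraries and 197, 243 and 232 CPM in the RSM libraries. All Veh libraries were near the limit of detection, where 3 counts are about 0.16 CPM, and all RSM libraries were far above it (log2 fold change 10.05 ± 0.31, FDR = 8.6e-14). *F5* lies at chr1:164151838-164220277 on the plus strand (GRCm38), 1812 bases beyond the end of *Selp* (chr1:164115264-164150026, plus strand), which encodes the adhesion molecule P-selectin. *Selp* read 0.754, 0.755 and 0.56 CPM in the Veh libraries and 10.3, 10.4 and 8.99 CPM in the RSM libraries, with no overlap between the groups (log2 fold change 3.83 ± 0.22, FDR = 9.7e-11). *Gm16587*, a noncoding gene within *Selp* on the minus strand (chr1:164143432-164146366), had no counts in the Veh libraries and 8.66, 7.97 and 7.77 CPM in the RSM libraries, a mean at least 48.5-fold higher than the floor of 3 counts per library. Exons of *Selp* and *Gm16587* overlap those of the opposite strand over more than 10% of their length, and the strand setting of the counting is not given in the sources used here, so reads of these neighbours cannot be told apart.

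Other strong rises were in *Aqp9*, a channel for water and glycerol, in *Ffar2*, a receptor for short-chain fatty acids, and in *Trib3*, a pseudokinase induced by ATF4 and CHOP. *Aqp9* rose from 1.29, 0.871 and 0.616 CPM in Veh to 31.6, 45.2 and 35.8 CPM in RSM (log2 fold change 5.32 ± 0.25, FDR = 1.2e-11). The groups did not overlap for any of these 3 genes, and the log2 fold change was 6.29 for *Ffar2* and 5.56 for *Trib3*. *Gbp11* had 1 count over the 3 Veh libraries and 405 over the 3 RSM libraries, a ratio of 381 with a 95% counting interval of 68.0 to 15095, and reads of the similar genes of its family may be shared with it.

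Among the steepest falls were surface genes of myeloid cells. *Ccr2*, the receptor for the monocyte chemokine CCL2, read 22.3, 30.8 and 22.1 CPM in the Veh libraries and 0.56, 0.7 and 1.33 CPM in the RSM libraries. Every Veh library exceeded every RSM library (log2 fold change -4.85 ± 0.25, FDR = 3.6e-11). *Map2*, a microtubule-associated protein, *Clec4b1*, a C-type lectin, and *Siglecf*, a sialic acid-binding lectin, also fell, with log2 fold changes of -4.63, -4.92 and -4.12 and no overlap between groups.

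Among the 8 changed genes with the most counts, *Ctsl* alone rose. *Ctsl* encodes the lysosomal protease cathepsin L and read 1651, 1842 and 1792 CPM in the Veh libraries and 5187, 5993 and 5638 CPM in the RSM libraries (log2 fold change 1.67 ± 0.08, FDR = 1.3e-11), with opposite-strand exons over more than 10% of its length. *Lpl*, the lipoprotein lipase that macrophages secrete, read 8804, 10520.2 and 9773 CPM in the Veh libraries and 2194, 2283 and 1978 CPM in the RSM libraries. The Veh libraries did not overlap the RSM libraries and exceeded them by a mean ratio of 4.51 (log2 fold change -2.17 ± 0.13, FDR = 3.4e-10). *Apoe*, which carries lipid out of macrophages, *Anxa1*, a phospholipid-binding mediator of resolution, and *Tmsb4x*, which sequesters actin, fell (log2 fold changes -1.35, -1.23 and -1.25). The other 3 of the 8 were *mt-Co1*, *mt-Cytb* and *mt-Nd1*, transcribed from mitochondrial DNA.

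**Figure D1:**
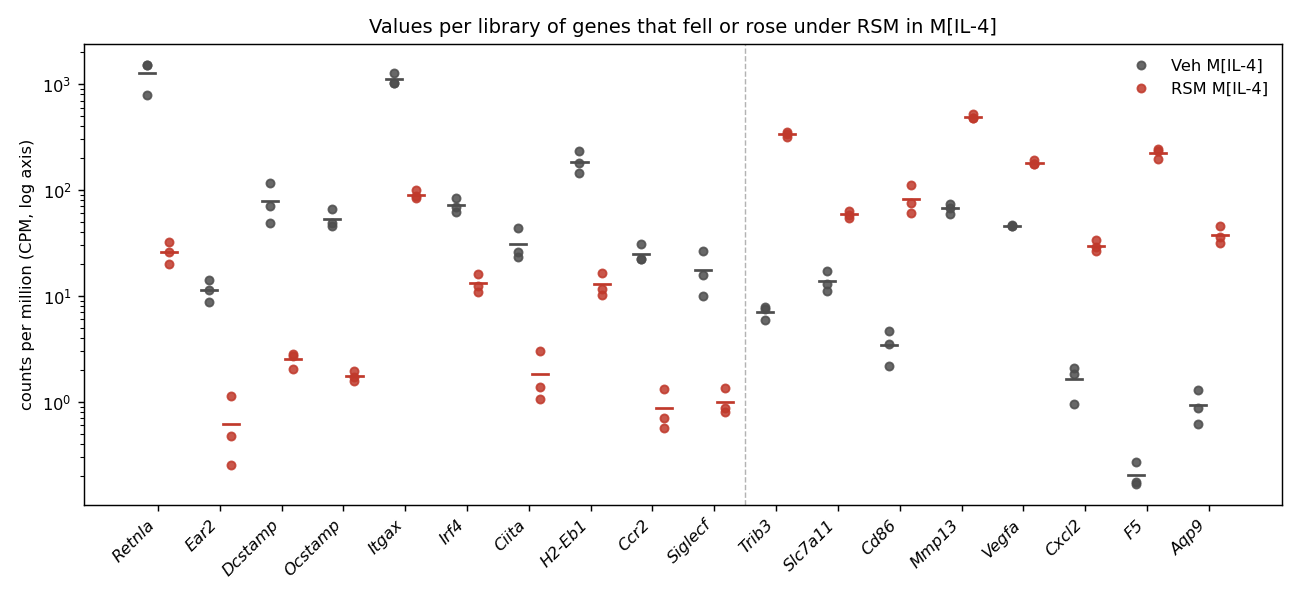
CPM on a log axis for 10 genes that fell (left of the dashed line) and 8 that rose in the 3 Veh (grey) and 3 RSM (red) libraries of M[IL-4], with a bar at each group mean. The grey and red points do not overlap for any of the 18 genes, and the gap is widest for *F5*.

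Genes of the IL-4 response moved in both directions. Of 53 tested members of the list, 9 rose and 21 fell (56.6%, against 11.0% of all tested genes). The median log2 fold change was -0.54 against 0.02 over all genes. The list was described in 3 parts, the signalling and transcription factor genes, the secreted products and the surface proteins. In M[0], without IL-4, their median log2 fold changes of RSM over Veh were 0.07, -0.004 and -1.08. In M[IL-4] they were -0.61, -0.11 and -0.45.

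The receptor gene rose. *Il4ra*, the receptor's ligand-binding chain, read 68.6, 63.6 and 61.4 CPM in the Veh libraries and 152, 138 and 148 CPM in the RSM libraries. All 3 RSM libraries lay above the Veh libraries (log2 fold change 1.18 ± 0.07, FDR = 1.4e-10). *Stat6* and *Jak1* were at log2 fold changes of 0.09 and 0.05 and were not called, and the sign for *Jak1* changed on leaving out libraries. Downstream, 2 of 20 signalling and transcription factor genes rose and 8 fell (median -0.61). *Batf3*, an AP-1 family factor of dendritic cell development, fell from 20.6, 22.1 and 28.1 CPM to 3.16, 1.88 and 4.04 CPM (log2 fold change -2.96 ± 0.28, FDR = 7.3e-08). *Matk*, a kinase that restrains Src kinases, fell (-2.76), and so did *Ppargc1b*, the coactivator PGC-1β of oxidative metabolism (-1.70). Feedback inhibitors of cytokine receptors differed in direction, as *Socs2* fell (log2 fold change -1.49) and *Socs3* rose (log2 fold change 2.04).

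Among 15 secreted proteins and enzymes 4 rose and 7 fell. *Retnla*, the gene of the secreted protein RELMα that IL-4 induces through STAT6, read 797, 1519 and 1505 CPM in the Veh libraries and 20.0, 25.9 and 32.2 CPM in the RSM libraries. Every Veh library exceeded every RSM library, by a mean ratio of 48.9 (log2 fold change -5.61 ± 0.27, FDR = 3.2e-09). Its upstream sequence is shown because it was the most abundant of the genes that fell this far. It runs from chr16:48842359-48842550 on the plus strand (GRCm38.p6, RefSeq promoter table) up to the annotated gene, which begins at chr16:48842551-48844461. Capitals mark the single match to TTC, 4 bases of any kind and GAA, the spaced half-sites that STAT6 prefers, searched on both strands. This spacing occurred in 6.95% of 32851 promoter windows of 300 bases, and a match is a description of the letters, not a site.
Retnla: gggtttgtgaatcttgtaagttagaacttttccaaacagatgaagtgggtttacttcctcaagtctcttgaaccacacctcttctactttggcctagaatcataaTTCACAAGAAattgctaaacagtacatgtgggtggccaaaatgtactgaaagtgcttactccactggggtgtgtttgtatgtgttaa

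Other secreted products fell with *Retnla*. *Ear2*, an eosinophil-associated ribonuclease of macrophages, read 8.77, 14.2 and 11.4 CPM in the Veh libraries and 0.255, 1.13 and 0.479 CPM in the RSM libraries (log2 fold change -4.20 ± 0.42, FDR = 5.2e-07). *Rnase2a*, a close relative with which reads may be shared, fell (log2 fold change -3.29). The chemokine genes *Ccl24* and *Ccl17* fell (log2 fold changes -4.12 and -3.93), with *Ccl17* at 34 counts over the Veh libraries and 2 over the RSM libraries (ratio 18.1, 95% counting interval 4.63 to 155). *Mmp12*, macrophage elastase, fell (log2 fold change -2.46). In the other direction, *Ch25h*, which makes 25-hydroxycholesterol, rose from 3.88, 3.02 and 4.65 CPM to 34.4, 22.3 and 33.8 CPM (log2 fold change 2.97 ± 0.18, FDR = 3.3e-10).

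Of 18 surface proteins 3 rose and 6 fell. *Itgax*, the integrin chain CD11c, read 1021, 1273 and 1031 CPM in the Veh libraries and 87.0, 99.7 and 84.0 CPM in the RSM libraries, without overlap (log2 fold change -3.62 ± 0.13, FDR = 4.1e-13). The pair of transmembrane proteins that macrophages need to fuse into giant cells fell together. *Dcstamp* read 48.9, 116 and 71.3 CPM in the Veh libraries and 2.70, 2.80 and 2.02 CPM in the RSM libraries, and *Ocstamp* read 48.8, 66.0 and 46.1 CPM in the Veh libraries and 1.94, 1.56 and 1.70 CPM in the RSM libraries. For both, every Veh library was at least 10 times every RSM library (log2 fold change -4.97 ± 0.32, FDR = 6.7e-10, and log2 fold change -4.94 ± 0.18, FDR = 4.6e-12, respectively). These falls were not limited to cells with IL-4. In M[0] the log2 fold change was -4.82 for *Itgax*, -5.41 for *Dcstamp* and -5.66 for *Ocstamp*, which averaged only 0.337 CPM in Veh M[0]. *Atp6v0d2*, a proton pump subunit of fusing macrophages, was lower (log2 fold change -0.74) and did not pass the fold threshold. The scavenger receptor *Cd163* and the cyclooxygenase *Ptgs1* fell (log2 fold changes -1.94 and -1.24). The galactose-binding lectins *Clec10a* and *Mgl2* rose (log2 fold changes 1.66 and 1.17), with *Mgl2* at 0.93 and not called without Veh library 1.

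Genes of antigen presentation by MHC class II fell together, while no MHC class I gene was called. MHC class II molecules display peptides to CD4+ T cells, and CIITA is the coactivator that drives their genes. Of 9 tested class II genes 8 fell and none rose, with a median log2 fold change of -3.07. *Ciita* read 23.2, 44.1 and 25.7 CPM in the Veh libraries and 1.07, 3.01 and 1.38 CPM in the RSM libraries (log2 fold change -4.09 ± 0.34, FDR = 1.4e-08). The β chain gene *H2-Eb1* read 143, 235 and 179 CPM in the Veh libraries and 10.3, 16.6 and 11.7 CPM in the RSM libraries, and the invariant chain gene *Cd74* read 1538, 2333 and 1867 CPM in the Veh libraries and 198, 259 and 227 CPM in the RSM libraries. The groups did not overlap for these 3 genes, and the log2 fold change was -3.85 for *H2-Eb1* and -3.07 for *Cd74*. *H2-Aa*, *H2-Ab1* and *H2-DMa* fell (log2 fold changes -3.41, -3.27 and -2.50), and *Ctss*, the protease that trims the invariant chain, was lower (log2 fold change -0.54) without passing the fold threshold. None of 10 class I genes was called (median 0.39), with the heavy chain gene *H2-K1* at 0.85. By the FDR alone 6 of the 10 were higher and 1 lower, against 20.1% and 18.5% of all tested genes. The summed level of the class I genes was 5571 to 5928 CPM in the Veh libraries and 7833 to 8442 CPM in the RSM libraries, without overlap. *Cd74* in M[0] had a mean of 495 ± 135 CPM in Veh and 54.3 ± 2.74 CPM in RSM (SD, n = 3), and the class II median in M[0] was -3.01. Dendritic cells are rich in class II, and their 7 listed markers summed to 2.07 to 3.02 CPM in Veh and 0.745 to 1.51 CPM in RSM of M[IL-4], without overlap. Of these, 1 was at 0 counts in these libraries and 1, *Zbtb46*, was tested and not called (log2 fold change -1.25 ± 0.56, FDR = 0.087). Their part in the fall of class II was not tested.

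Costimulatory and checkpoint ligands, which tune the T cell response, divided. Of 10 tested, 5 rose and 2 fell (70%, against 11.0% of all tested genes). *Cd86*, a ligand of CD28, read 2.15, 4.64 and 3.47 CPM in the Veh libraries and 60.2, 110.3 and 76.0 CPM in the RSM libraries. Every RSM library was above every Veh library, by a mean ratio of 24.0 (log2 fold change 4.59 ± 0.33, FDR = 2.2e-09). *Cd80*, the other CD28 ligand, and *Cd274*, which encodes PD-L1, rose (log2 fold changes 1.65 and 1.58). *Cd83*, which stabilizes class II and CD86 at the surface, and *Cd276* fell (log2 fold changes -1.91 and -1.39).

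Of 16 chemokine ligands 6 rose and 3 fell (56.25%, against 11.0% of all tested genes, median 0.47). *Cxcl2*, which attracts neutrophils, read 1.83, 2.09 and 0.952 CPM in the Veh libraries and 33.4, 28.8 and 26.3 CPM in the RSM libraries (log2 fold change 4.18 ± 0.21, FDR = 1.6e-11), and *Cxcl3* and *Cxcl1* rose (log2 fold changes 4.67 and 1.14), with *Cxcl1* at 0.90 and not called without Veh library 1. *Pf4*, the platelet factor 4 gene that macrophages also express, read 25.1, 24.0 and 32.5 CPM in the Veh libraries and 225, 151 and 237 CPM in the RSM libraries (log2 fold change 2.91 ± 0.17, FDR = 1.6e-10). The monocyte attractants *Ccl7* and *Ccl12* rose (log2 fold changes 1.82 and 2.24), while *Ccl3* and *Cxcl16* fell (log2 fold changes -1.13 and -1.27). Among 7 chemokine receptors, 3 fell (*Ccr2*, *Cx3cr1* and *Ccr3*) and *Ackr3*, a scavenging receptor for CXCL12, rose (log2 fold change 3.65). *Cx3cr1*, the fractalkine receptor, fell from 3.28, 1.51 and 1.40 CPM to 0.0509, 0 and 0.213 CPM (log2 fold change -4.46 ± 0.75, FDR = 9.3e-05).

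Of 21 cytokine and growth factor genes 5 rose and 5 fell (47.6%, against 11.0% of all tested genes). *Il6*, the gene of the pleiotropic cytokine IL-6, read 0.108, 0.116 and 0 CPM in the Veh libraries and 1.99, 3.98 and 2.98 CPM in the RSM libraries (log2 fold change 5.20 ± 0.57, FDR = 5.9e-07). *Osm*, a relative of IL-6, and *Inhba*, which encodes the activin A subunit, rose (log2 fold changes 1.96 and 1.77). *Il10*, an anti-inflammatory cytokine gene, fell from 3.50, 3.14 and 3.98 CPM to 0.611, 1.08 and 1.12 CPM (log2 fold change -1.92 ± 0.30, FDR = 3.6e-05). *Il1rn*, the IL-1 receptor antagonist, fell (log2 fold change -1.27), and *Tnf* was lower (log2 fold change -0.92), short of the fold threshold but past it without RSM library 1 (-1.18) or Veh library 3. *Il1b* read 0.161, 1.05 and 0.448 CPM in the Veh libraries and 0, 0.0538 and 0.213 CPM in the RSM libraries. Its groups overlapped, and its call (log2 fold change -2.54) was lost on leaving out Veh library 2 (-1.71), RSM library 1 (-1.97) or RSM library 2 (-2.31).

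Of 39 tested genes of choline and phospholipid metabolism 2 rose and 4 fell (15.4%, against 11.0% of all tested genes, median -0.05). By the FDR alone 8 of the 39 were higher and 13 lower, against 20.1% and 18.5% of all tested genes. Of 3 tested choline transporter genes none was called, of 7 phosphatidylcholine synthesis genes 1 fell, and of 6 genes of ethanolamine and serine phospholipids none was called. *Chka*, the main choline kinase gene of most cells, read 20.6, 23.2 and 23.1 CPM in the Veh libraries and 22.9, 22.4 and 23.6 CPM in the RSM libraries. The groups overlapped (log2 fold change 0.04 ± 0.09, FDR = 0.76). *Chkb*, the second choline kinase, was near the limit of detection at 0.754, 0.755 and 0.56 CPM in the Veh libraries and 0.204, 0.215 and 0.106 CPM in the RSM libraries (log2 fold change -1.93 ± 0.60, FDR = 0.015). Its exons overlap the opposite strand over more than 10% of their length, and without RSM library 3 its FDR was 0.064 (log2 fold change -1.69). *Slc44a1*, a choline transporter of the plasma membrane and mitochondria, read 131, 149.9 and 126 CPM in the Veh libraries and 63.8, 83.5 and 70.2 CPM in the RSM libraries. The groups did not overlap, but the log2 fold change of -0.90 was under the fold threshold (FDR = 4.5e-07), and was -1.02 and past it without RSM library 2. *Pcyt1a*, the rate-limiting enzyme of phosphatidylcholine synthesis, differed (log2 fold change -0.31), and *Chpt1*, the cholinephosphotransferase, by 0.54.

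Of 23 tested genes that release, remodel or oxidize choline-containing lipids, 2 rose and 3 fell (21.7%, against 11.0% of all tested genes, median -0.00). *Enpp2* encodes autotaxin, the lysophospholipase D that releases choline from lysophosphatidylcholine, and read 37.0, 22.8 and 44.7 CPM in the Veh libraries and 12.2, 6.03 and 8.99 CPM in the RSM libraries (log2 fold change -1.94 ± 0.31, FDR = 5.4e-05). The lysophospholipid acyltransferases *Mboat2* and *Mboat1* fell (log2 fold changes -2.48 and -1.47). *Sgms2*, a sphingomyelin synthase, rose (log2 fold change 1.05), and was not called without RSM library 1 (0.95) or Veh library 2 (0.87). *Chdh*, the mitochondrial choline dehydrogenase, had no counts in the Veh libraries and 0.611, 0.431 and 0.532 CPM in the RSM libraries, a mean at least 3.13-fold higher than the floor of 3 counts per library.

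Genes of sterol synthesis, which the factor SREBP2 induces when membranes lack cholesterol, were lower across the pathway. Of 25 tested, 12 fell and none rose, 23 were lower by the FDR alone, and the median log2 fold change was -0.96. *Fdps*, the synthase of farnesyl diphosphate, read 2.91, 3.60 and 3.53 CPM in the Veh libraries and 0.662, 0.646 and 0.373 CPM in the RSM libraries. The groups did not overlap (log2 fold change -2.56 ± 0.38, FDR = 2.2e-05). *Idi1*, which makes an isoprenoid precursor, and *Insig1*, which retains SREBP in the ER, fell (log2 fold changes -1.95 and -1.60).

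Fatty acid synthesis genes moved less, with 1 of 17 rising and 1 falling (11.8%, against 11.0% of all tested genes, median -0.34). Both calls depended on single libraries, since *Fads2*, the delta-6 desaturase, was at -1.01, at -0.77 without RSM library 2 and at -0.98 without Veh library 3, and *Elovl6*, a fatty acid elongase, was at 1.05 and at 0.92 without Veh library 1. Among 13 LXR target and efflux genes 2 rose and 3 fell (38.5%, against 11.0% of all tested genes), including *Lpl* and *Apoe* above. *Abcg1*, a cholesterol exporter, fell (log2 fold change -1.07) (-0.95 without Veh library 2, and just short of the threshold without RSM library 3), while *Abca1*, the other main exporter, differed (log2 fold change 0.12) with overlapping groups.

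Of 20 genes of lipid uptake and droplets 3 rose (15%, against 5.05% of all tested genes) and none fell. By the FDR alone 6 of the 20 were higher and 6 lower, against 20.1% and 18.5% of all tested genes. *Hilpda* and *G0s2* encode inhibitors of the triglyceride lipase ATGL. *Hilpda* read 5.38, 5.40 and 5.71 CPM in the Veh libraries and 26.9, 32.5 and 31.9 CPM in the RSM libraries (log2 fold change 2.47 ± 0.14, FDR = 8.9e-11), and *G0s2* read 0.269, 0 and 0.112 CPM in the Veh libraries and 1.88, 1.83 and 1.44 CPM in the RSM libraries (log2 fold change 3.66 ± 0.53, FDR = 2.0e-05). For both, every RSM library was above every Veh library. *Dgat2*, which completes triglyceride synthesis, rose (log2 fold change 1.42) (1.36 and no longer called without the libraries numbered 3), and *Plin2*, the droplet coat protein, was higher (log2 fold change 0.69) without being called.

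Genes of the integrated stress response (ISR) rose widely. In the ISR, kinases phosphorylate the initiation factor eIF2α, and the factors ATF4 and CHOP then switch on amino acid transport, amino acid synthesis and tRNA charging. Of 60 tested members 27 rose and none fell, with a median log2 fold change of 0.91. By role, 13 of 17 regulators rose (median 2.02), as did 6 of 10 amino acid transporters (1.37), 5 of 13 amino acid synthesis genes (0.78) and 3 of 20 cytosolic tRNA synthetases (0.45).

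Promoter windows from RefSeq (GRCm38.p6) were found for 23 of the 27 ISR genes that rose. Windows of list members that did not rise were not counted apart, so the share below is not a test of RSM. The letters TGATGCAA, a core of the C/EBP-ATF element that ATF4 binds, were searched on both strands, and 8 of the 30 windows held them (26.7%) against 0.895% of all 32851 windows. Stretches of 30 bases from 7 of these windows are shown because they hold these letters, which 15 of the 23 genes lacked in their windows, with the match in capitals as it reads on the gene's strand.
Chac1: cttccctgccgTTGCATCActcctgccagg
Slc7a11: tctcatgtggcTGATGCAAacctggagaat
Slc1a4: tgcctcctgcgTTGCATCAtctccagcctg
Nupr1: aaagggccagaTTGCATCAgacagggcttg
Vldlr: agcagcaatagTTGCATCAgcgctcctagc
Jdp2: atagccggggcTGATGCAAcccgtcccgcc
Pycr1: tgccctgtgtaTGATGCAAtgcacaaggct

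Among the regulators, *Sesn2*, a leucine sensor that restrains mTORC1, read 23.0, 16.5 and 23.1 CPM in the Veh libraries and 105, 92.7 and 92.1 CPM in the RSM libraries (log2 fold change 2.21 ± 0.11, FDR = 2.5e-11). *Nupr1*, a stress-induced chromatin protein, *Atf5*, a factor of the mitochondrial stress response, *Stc2*, a secreted glycoprotein, and *Gdf15*, a stress cytokine, rose (log2 fold changes 2.20, 2.36, 2.35 and 2.43). The groups did not overlap for any of these 5 genes. *Ddit3*, the gene of CHOP, read 20.2, 24.4 and 22.2 CPM in the Veh libraries and 124, 136 and 110.1 CPM in the RSM libraries (log2 fold change 2.47 ± 0.09, FDR = 4.1e-13). *Vldlr*, a lipoprotein receptor, and *Jdp2*, an AP-1 repressor, rose (log2 fold changes 1.91 and 1.67). *Atf3*, which ATF4 induces in many cells, was lower (log2 fold change -0.83), opposite in sign to the rest of the regulators, and was not called.

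Of the transporters, *Slc7a11*, the cystine-glutamate exchanger, read 11.0, 17.2 and 13 CPM in the Veh libraries and 54.2, 63.9 and 58.4 CPM in the RSM libraries (log2 fold change 2.10 ± 0.24, FDR = 7.8e-07). *Slc1a4*, *Slc7a3* and *Slc7a5*, which carry neutral, cationic and large neutral amino acids, rose (log2 fold changes 1.85, 1.84 and 1.81), while the glutamine carrier *Slc1a5* was lower (log2 fold change -0.72) and not called. In amino acid synthesis, *Cth*, which makes cysteine from cystathionine, read 0.538, 0.523 and 0.504 CPM in the Veh libraries and 5.20, 4.20 and 4.90 CPM in the RSM libraries (log2 fold change 3.17 ± 0.26, FDR = 1.3e-08). *Aldh1l2*, a mitochondrial folate enzyme, and *Pycr1*, the last enzyme of proline synthesis, rose (log2 fold changes 2.79 and 1.39). The serine synthesis genes *Phgdh*, *Psph* and *Psat1* read 0.78, 0.73 and -0.23 on the log2 scale and were not called. *Asns*, asparagine synthetase, was at 1.06, and at 0.97 without Veh library 2. The tRNA synthetase genes *Aars*, *Sars* and *Eprs* rose (log2 fold changes 1.37, 1.26 and 1.05), and 15 of the 20 were higher by the FDR alone.

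The unfolded protein response of the ER shares eIF2α phosphorylation and the factors ATF4 and CHOP with the ISR. In its list of 35 tested genes 2 rose and 3 fell (14.3%, against 11.0% of all tested genes). Of its 8 sensors and factors 1 rose, *Ern1*, which encodes the sensor IRE1α and read 82.9, 84.0 and 72.7 CPM in the Veh libraries and 318, 309 and 279.9 CPM in the RSM libraries (log2 fold change 1.92 ± 0.06, FDR = 2.8e-13), with every RSM library above every Veh library. Of 27 chaperone and ERAD genes 1 rose and 3 fell (median -0.13). *Ero1l*, the ER oxidase, rose from 45.2, 52.9 and 47.3 CPM to 219.5, 250.0 and 228 CPM (log2 fold change 2.26 ± 0.09, FDR = 1.1e-12). *Calr*, a calcium-binding chaperone, and *Sdf2l1*, which regulates BiP, fell (log2 fold changes -1.16 and -1.56). *Hspa5*, the gene of BiP itself, was lower (log2 fold change -0.38) and not called.

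Of 21 genes of the oxidative stress factor NRF2, 3 rose and 1 fell (19.0%, against 11.0% of all tested genes, median 0.06). The risers were *Slc7a11*, *Gclm*, a subunit of glutathione synthesis (1.21), and *Mt2*, a metallothionein (2.39), most of which overlaps opposite-strand exons. *Txnrd1*, thioredoxin reductase, was lower (log2 fold change -0.28) and not called. Of 20 p53 target genes 2 rose and 1 fell (15%, against 11.0% of all tested genes, median 0.36). By the FDR alone 11 of the 20 were higher and 3 lower, against 20.1% and 18.5% of all tested genes. The death receptor *Fas* was at 1.74 and the cell cycle inhibitor *Cdkn1a* at 1.10.

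Messenger RNAs of mitochondrial DNA fell and its ribosomal RNAs rose. Mitochondrial DNA encodes core proteins of the respiratory chain and a pair of ribosomal RNAs, cut from long shared precursors. Of 12 tested mitochondrial mRNAs 10 fell, and all 12 were lower by the FDR alone (median -1.92). Their summed level was 17591 to 23029 CPM in the Veh libraries and 4682 to 6424 CPM in the RSM libraries, without overlap. *mt-Co1*, a core subunit of cytochrome oxidase, read 8048, 10407 and 8276 CPM in the Veh libraries and 2029, 2668 and 1926 CPM in the RSM libraries (log2 fold change -2.01 ± 0.13, FDR = 5.4e-10). The small ribosomal RNA *mt-Rnr1* read 94.7, 147 and 109 CPM in the Veh libraries and 697, 554 and 547 CPM in the RSM libraries, so that every RSM library was above every Veh library (log2 fold change 2.36 ± 0.20, FDR = 1.6e-08), and *mt-Rnr2* rose (log2 fold change 1.71). Poly-T selection captures ribosomal RNA only in part, and whether capture moved with these values was not tested.

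Nuclear genes of mitochondria differed by list. None of 23 genes of mitochondrial replication, transcription and RNA processing was called (median 0.09), with *Tfam*, which packages mitochondrial DNA, at -0.10 and *Polrmt*, its RNA polymerase, at -0.25. None of 36 nuclear subunits of oxidative phosphorylation was called (median -0.23). By the FDR alone 21 of the 36 were lower and 1 higher, against 18.5% and 20.1% of all tested genes. Among 22 genes of mitochondrial stress and quality control, 3 rose and 1 fell (18.2%, against 11.0% of all tested genes). *Hspa9*, the matrix HSP70 chaperone, read 328, 349 and 332 CPM in the Veh libraries and 899, 986 and 959 CPM in the RSM libraries (log2 fold change 1.49 ± 0.06, FDR = 2.3e-12). *Lonp1*, a matrix protease, and *Bnip3*, a mitophagy receptor, rose (log2 fold changes 1.20 and 1.15), and *Ucp2*, an inner membrane carrier, fell (log2 fold change -1.36).

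Cell cycle genes fell together. Macrophages grown from bone marrow still divide in culture, and DNA replication genes peak in S phase and mitosis genes in G2 and M. Of 23 mitosis genes 22 fell (median -1.76), of 26 replication genes 19 fell (-1.40) and of 18 regulators of G1 5 fell, with none rising in any of these groups. In bulk RNA, fewer cells of a kind and less RNA per cell cannot be told apart, and this holds for dividing cells here.

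The mitosis genes are shown with their promoters because promoters of such genes are known for CHR elements (TTTGAA), bound by the DREAM and MMB complexes, and for CCAAT boxes. Windows were found for 18 of the 22 genes, and 14 of their 19 windows held TTTGAA on either strand (73.7%, against 17.9% of all windows) and 17 held CCAAT (89.5%, against 37.4%). The 19 windows of 14 falling replication genes held CCAAT in 12 (63.2%), and 8 held TTTNNCGC, an E2F-type core (42.1%, against 5.17% of all windows). No overlap between these motifs and others was removed. Windows of list members that were not called were again not counted apart, so these shares are not a test of RSM. *Ccnb2*, which encodes cyclin B2, has 1 TTTGAA and 3 CCAAT in the 250 bases before its start (chr9:70421555-70421804, minus strand, GRCm38.p6), marked in capitals, with the TTTGAA farther from the start than the CCAAT boxes, and 6 stretches of 30 bases from other mitosis genes follow it, with TTTGAA or its reverse complement in capitals.
Ccnb2: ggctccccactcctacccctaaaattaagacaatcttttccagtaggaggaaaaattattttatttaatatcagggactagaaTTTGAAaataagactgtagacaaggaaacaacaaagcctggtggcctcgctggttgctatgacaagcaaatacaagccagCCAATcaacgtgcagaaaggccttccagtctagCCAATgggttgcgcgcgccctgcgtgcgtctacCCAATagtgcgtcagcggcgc
Cdk1: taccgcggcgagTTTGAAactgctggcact
Plk1: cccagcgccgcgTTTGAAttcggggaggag
Aurka: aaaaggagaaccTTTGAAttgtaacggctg
Cenpf: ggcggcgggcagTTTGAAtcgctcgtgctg
Mki67: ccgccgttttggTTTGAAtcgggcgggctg
Kif11: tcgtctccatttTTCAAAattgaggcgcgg

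*Ccnb2* read 19.4, 21.3 and 20.0 CPM in the Veh libraries and 4.13, 2.64 and 4.20 CPM in the RSM libraries (log2 fold change -2.46 ± 0.23, FDR = 7.4e-08). *Mki67*, the gene of the proliferation antigen Ki-67, read 139.7, 167 and 139 CPM in the Veh libraries and 28.7, 24.5 and 31.1 CPM in the RSM libraries (log2 fold change -2.40 ± 0.18, FDR = 5.8e-09). The groups did not overlap for either gene. The kinase genes *Cdk1*, *Plk1* and *Aurka* fell (log2 fold changes -1.53, -1.45 and -1.27). *Kif11*, a spindle motor, and *Nusap1*, which bundles spindle microtubules, fell (log2 fold changes -2.25 and -3.01). In replication, *Uhrf1*, which maintains DNA methylation, and *Pcna*, the sliding clamp, fell (log2 fold changes -2.85 and -1.59). In G1, *Ccnd1* and *Ccne2* fell (log2 fold changes -1.47 and -1.85), whereas *Ccnd2* was higher (log2 fold change 0.89) and not called, except without RSM library 2 (1.03) or Veh library 3.

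**Figure D2:**
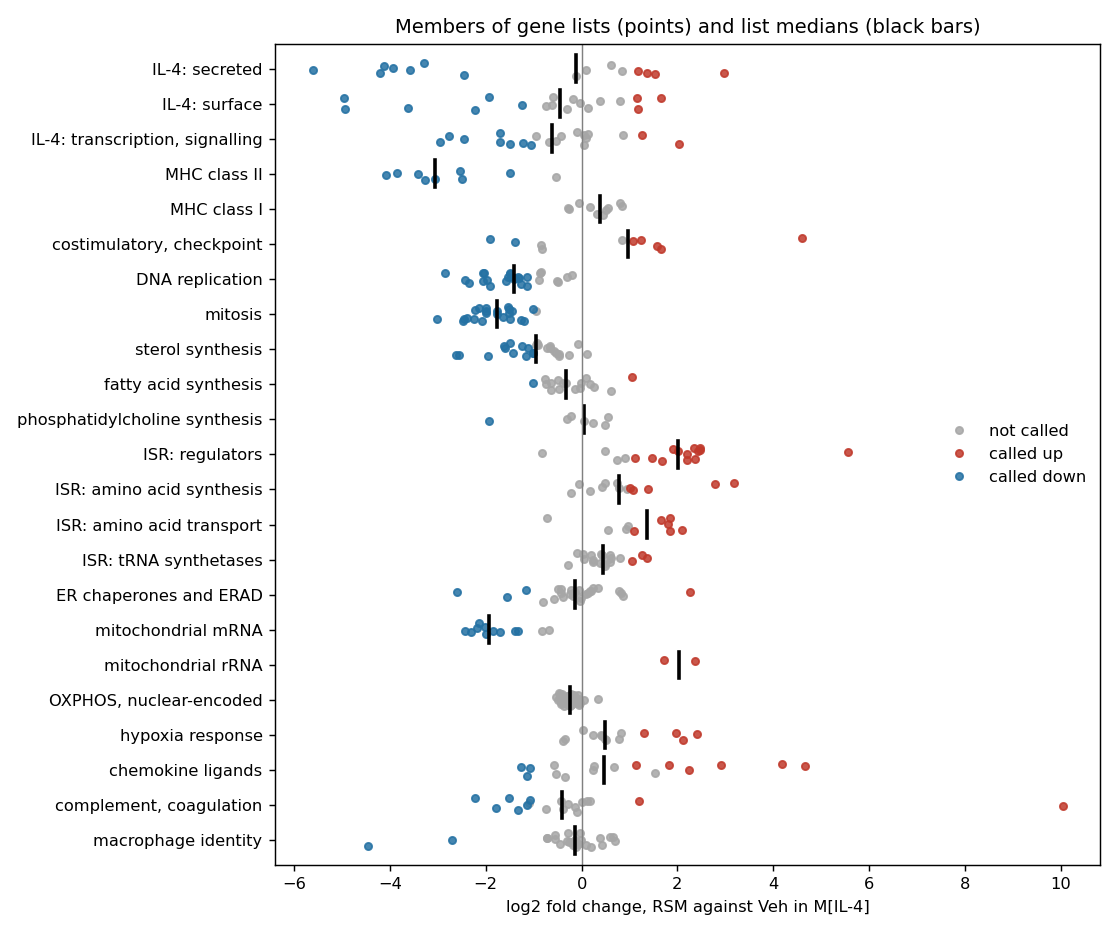
Each point is the log2 fold change (RSM over Veh, M[IL-4]) of 1 tested gene, arranged by gene list, in red where the gene rose, blue where it fell and grey otherwise, with a black bar at each list's median. MHC class II, mitosis and mitochondrial mRNA lie almost wholly below 0, and ISR regulators almost wholly above.

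Of 21 glycolysis genes 1 rose (4.76%, against 5.05% of all tested genes, median 0.28), the lactate exporter gene *Slc16a3* (log2 fold change 1.64). By the FDR alone 11 of the 21 were higher and 2 lower, against 20.1% and 18.5% of all tested genes. Their summed level was 8760 to 8933 CPM in the Veh libraries and 10114 to 10251 CPM in the RSM libraries, without overlap. Of 14 hypoxia response genes 4 rose (28.6%, against 5.05% of all tested genes) and none fell. *Vegfa*, the endothelial growth factor gene, read 46.7, 45.6 and 45.6 CPM in the Veh libraries and 178, 191 and 176 CPM in the RSM libraries. The Veh libraries were within 2 CPM of each other and all RSM libraries were above them (log2 fold change 1.98 ± 0.10, FDR = 3.4e-11). *Egln3*, an oxygen-sensing hydroxylase, rose (log2 fold change 2.41). *Adm*, adrenomedullin, rose (log2 fold change 2.11), and had an edgeR FDR of 0.060 without the libraries numbered 3. *Car9* and *Pdk1*, which also respond to hypoxia in many cells, read -0.34 and -0.38 and were not called.

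Of 20 matrix proteases and their inhibitors 5 rose and 3 fell (40%, against 11.0% of all tested genes). *Mmp13*, a collagenase, read 59.5, 74.0 and 67.7 CPM in the Veh libraries and 479, 475 and 518 CPM in the RSM libraries (log2 fold change 2.87 ± 0.08, FDR = 2.8e-14). *Mmp9*, a gelatinase, and *Plau*, urokinase, fell (log2 fold changes -2.19 and -1.90). The inhibitors *Timp3* and *Timp1* rose (log2 fold changes 1.93 and 1.38). Of 18 complement and coagulation genes 2 rose (*F5* and *Thbd*, thrombomodulin, at 1.20) and 6 fell. These were 44.4% of the list, against 11.0% of all tested genes. The 3 chains of C1q, which opens the classical pathway, fell together. *C1qa* read 407, 379 and 543 CPM in the Veh libraries and 83.7, 91.9 and 107 CPM in the RSM libraries (log2 fold change -2.23 ± 0.18, FDR = 9.1e-09), and *C1qb* and *C1qc* fell (log2 fold changes -1.79 and -1.33).

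Of 29 lysosome genes 1 rose, *Ctsl*, and 1 fell, *Tfeb*, the master factor of lysosome genes (-1.12). These were 6.90% of the list, against 11.0% of all tested genes. Of 15 autophagy genes 1 rose (6.67%, against 5.05% of all tested genes). It was *Sqstm1*, the cargo receptor p62 (1.62), and 2 rose with a replicate block. Of 17 iron genes 2 rose and 2 fell (23.5%, against 11.0% of all tested genes). *Lcn2*, which binds bacterial siderophores, had 1 count over the Veh libraries and 69 over the RSM libraries (ratio 65.0, 95% counting interval 11.3 to 2602). *Slc40a1*, the iron exporter ferroportin, fell (log2 fold change -1.0), and was not called without Veh library 3 (-0.94) or RSM library 2 (-0.97).

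Calls among interferon-stimulated genes depended on 1 library. Of 27 tested, 5 rose and 2 fell (25.9%, against 11.0% of all tested genes, median 0.54). Without RSM library 3 only 1 rose and the median was 0.07, and with a replicate block 1 fell. *Irf7*, the factor that amplifies type I interferon, read 7.21, 6.39 and 10.0 CPM in the Veh libraries and 13.1, 21.9 and 46.3 CPM in the RSM libraries (log2 fold change 1.78 ± 0.33, FDR = 2.8e-04), with RSM library 3 the highest. *Rsad2*, the antiviral enzyme viperin, read 2.42, 4.82 and 6.05 CPM in the Veh libraries and 5.55, 9.74 and 40.7 CPM in the RSM libraries, and its groups overlapped. Without RSM library 3 the log2 fold change of *Rsad2* went from 2.08 to 0.79, that of *Ifi44* from 2.33 to 1.05 and that of *Ifit1* from 1.64 to 0.03, and none of the 3 was then called. The *Ifit1* call was also lost without Veh library 1 (1.23) or Veh library 2 (1.73). *Gbp3* and *Gbp2*, guanylate-binding proteins, fell (log2 fold changes -1.41 and -1.02), and *Gbp2* was not called with the block (-0.99) or without Veh library 2 (-0.63), RSM library 1 (-0.92) or RSM library 2 (-0.95).

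Stromal markers were present, endothelial markers were present in part, and those of other cell types were low. Of the 5 listed endothelial markers, *Tek* and *Emcn* had no counts in these libraries. *Cdh5* had 10 counts over the Veh libraries and 7 over the RSM libraries. Summed stromal markers (7 tested of 8 listed) were 285 to 668 CPM in Veh and 542 to 1080.2 CPM in RSM, and 1 of the 7 rose (*Col3a1*, 1.29, and 0.98 without RSM library 1) and 1 fell (*Dcn*, -1.55). Their part in the rise of matrix genes was not tested. Neutrophil, B cell, and T and NK cell markers summed to at most 1.28, 7.64 and 1.73 CPM in any of these libraries, mast cell markers to at most 1.40 CPM, and erythroid markers to at most 0.232 CPM (10 counts over the 6 libraries). *Siglecf*, the tested eosinophil marker, which macrophages can also express, was 9.93 to 26.7 CPM in Veh and 0.798 to 1.35 CPM in RSM, and the other 3 listed eosinophil markers held 2 counts in all over these libraries. Platelet markers went from 0.464 to 0.560 CPM in Veh to 2.14 to 3.03 CPM in RSM, and *Kdr*, the endothelial receptor for VEGF-A, rose from 10.0, 6.62 and 6.50 CPM to 38.9, 44.4 and 39.0 CPM (log2 fold change 2.40 ± 0.16, FDR = 6.2e-10), while *Pecam1*, an endothelial marker shared with leukocytes, read -0.60 and was not called.

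Whether RSM acted differently with and without IL-4 was tested as an interaction, the log2 fold change of RSM over Veh in M[IL-4] minus that in M[0]. It passed the same thresholds for 321 genes (2.14% of those tested), with 183 higher and 138 lower. Across all tested genes the RSM log2 fold changes of the 2 polarizations, which share no libraries, had a Pearson correlation of 0.73, given as a description over genes, which are not independent.

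The parts of the IL-4 list differed in the interaction. The signalling and transcription factor part had 9 of 20 genes lower and none higher (median -0.58). The surface part had 4 of 18 higher and none lower (median 0.69), and the secreted part 1 of 15 higher and none lower (median 0.10). Sterol synthesis had 5 of 25 lower in the interaction. In the ISR list 10 of 60 were lower, 6 of them in amino acid synthesis. *Slc7a11* read 4.42, 5.87 and 4.03 CPM in Veh M[0] and 169, 200.4 and 163 CPM in RSM M[0], against the M[IL-4] values above. It was thus higher with RSM in both polarizations, by 5.22 in M[0] and 2.10 in M[IL-4] (interaction -3.12 ± 0.36, FDR = 1.7e-05). *Selp* read 0, 0 and 0.0538 CPM in Veh M[0] and 11.0, 12.7 and 8.98 CPM in RSM M[0], so that its RSM values overlapped between polarizations and its Veh values did not (interaction -4.92 ± 0.62, FDR = 4.0e-05, a fitted value that depends on the prior count, since Veh M[0] held 1 count in all). Interferon genes had 10 of 27 higher in the interaction, with a median log2 fold change of -0.84 in M[0] against 0.54 in M[IL-4], a value that RSM library 3 moved as given above.

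In the other direction, *Gng4*, a G protein γ subunit, read 1.44, 2.29 and 1.56 CPM in Veh M[0] and 2.72, 3.71 and 2.62 CPM in RSM M[0], and 0.646, 0.523 and 0.448 CPM in Veh M[IL-4] and 7.79, 11.1 and 8.04 CPM in RSM M[IL-4] (interaction 3.26 ± 0.38, FDR = 2.0e-05). *Bmp2*, a bone morphogenetic protein, read 14.9, 16.1 and 14.8 CPM in Veh M[0] and 2.56, 2.09 and 3.08 CPM in RSM M[0], and 3.28, 4.70 and 5.21 CPM in Veh M[IL-4] and 8.10, 7.64 and 8.41 CPM in RSM M[IL-4] (interaction 3.43 ± 0.23, FDR = 7.2e-08). The sign of the RSM difference was opposite in the 2 polarizations for *Bmp2*.

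**Figure D3:**
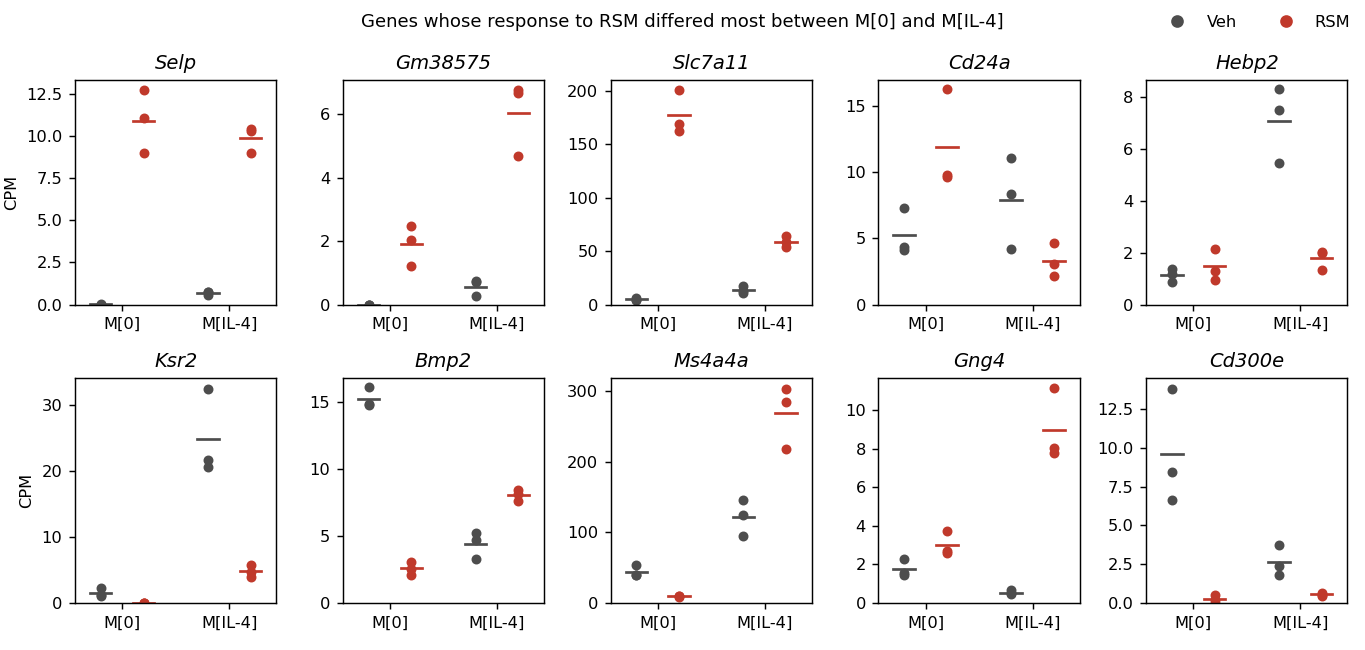
CPM on linear axes from 0 for the 5 genes with the lowest (upper panels) and the 5 with the highest interaction (lower panels) among called genes that averaged 100 or more counts in at least 1 of the groups, in the 3 Veh (grey) and 3 RSM (red) libraries of M[0] and of M[IL-4], with bars at group means. For *Slc7a11* the red points are above the grey points in both polarizations, with a wider gap in M[0], and for *Bmp2* they are below the grey points in M[0] and above them in M[IL-4].

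RSM and HC3 act on phosphorylation and on uptake of choline and were compared directly in M[IL-4], each at its own dose, so that a difference cannot be told apart from a difference in dose. They differed by the same thresholds for 419 genes (2.80% of those tested), with 238 higher and 181 lower in RSM. RSM over HC3 was lower for 5 of 9 MHC class II genes (median -1.72), with *Cd74* at 749.6 ± 121 CPM in HC3 and 228 ± 30.4 CPM in RSM (SD, n = 3). In HC3, as in RSM, *Retnla* was low, at 36.0 ± 5.46 CPM (log2 RSM over HC3 -0.47 ± 0.24, FDR = 0.26).

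Of the 10 genes with the largest called differences between the inhibitors, 5 in each direction among genes that averaged 100 or more counts in at least 1 of the groups, 6 were mitochondrial RNAs. All 12 tested mitochondrial mRNAs were higher in RSM than in HC3 (median 3.05) and both rRNAs were lower (median -3.74). *mt-Nd2*, a subunit of complex I, read 1174, 1549 and 1303 CPM in Veh, 456, 675 and 485 CPM in RSM and 32.9, 28.4 and 46.2 CPM in HC3 (log2 RSM over HC3 3.91 ± 0.17, FDR = 5.0e-11). *mt-Rnr1* read 7550.0, 11139 and 7719 CPM in HC3, above the RSM and Veh values given above (log2 RSM over HC3 -3.88 ± 0.21, FDR = 2.7e-10). Transcripts of the mitochondrial chromosome made up 1.78% to 2.20% of counts in Veh, 0.67% to 0.83% in RSM and 2.50% to 3.31% in HC3. *Pf4*, which rose under RSM, read 20.4, 19.9 and 21.6 CPM in HC3 (log2 RSM over HC3 3.31 ± 0.17, FDR = 2.3e-10).

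**Figure D4:**
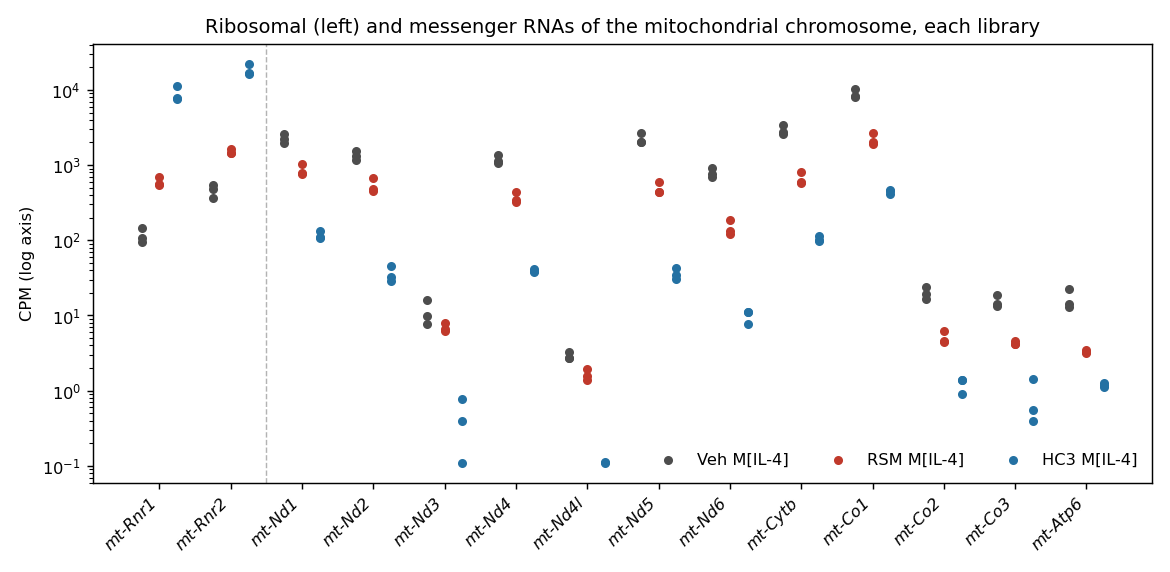
CPM on a log axis for the 12 tested mitochondrial mRNAs and 2 rRNAs in the 3 Veh, RSM and HC3 libraries of M[IL-4], with 1 HC3 library at 0 for *mt-Nd4l* not drawn. The mRNA points are highest in Veh (grey) and lowest in HC3 (blue), with Veh and RSM (red) overlapping for *mt-Nd3*, and the rRNA points follow the opposite order.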

How the data were processed

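RNA of BMDM was sequenced after poly-T selection. The authors trimmed reads with fastp, aligned pairs with STAR to GRCm38 (mapping quality 40), marked duplicates with Picard without removing them, and summarized exon reads per gene with featureCounts. They deposited raw counts per Ensembl gene, with no normalization. Versions, annotation release and strand setting are not given in the sources used here. Groups came from the sample labels, and 0 columns went unused.

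Counts were fitted with edgeR 4.0.16 under R 4.3.3 (TMM factors, glmQLFit and glmQLFTest). The model covered the 18 libraries, with 1 term for each group and without a block, and FDR values cover all 14979 genes. Log2 fold changes are contrasts of that model. Counting intervals (95%, exact) and floors of 3 counts cover counting error only. Gene positions came from the Ensembl annotation of GRCm38 (55144 of 55385 genes matched). Promoter windows (250 bases before to 50 after each start) came from RefSeq, GRCm38.p6. Figures were drawn with matplotlib 3.10.9, and the steps were tested on simulated data.

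Named genes were the 10 largest rises and falls that averaged 100 or more counts in the higher group and had 1 direction in every same-numbered pair, the 8 most abundant changed genes, up to 4 changed members per role of 35 gene lists, members whose role is described, and the 5 largest differences each way for the interaction and for RSM against HC3 (with the same count minimum in the highest of the groups). Some genes that this rule names are not reported here. The members, lists and tests were chosen with earlier results of these data known. Same-numbered Veh and RSM libraries of M[IL-4] had residual correlations of 0.22, 0.32 and 0.13, against at most 0.0739 between different numbers. For HC3 and RSM they were 0.21, 0.37 and 0.11, against at most 0.147. Residuals were taken from group means, so positive values for the same number force lower ones between different numbers. The labels name 3 mice, and pairing by number is likely but not settled. Replicates of a group differed beyond counting noise (chi-square per gene 6.56 to 18.2). Alternatives were a replicate block (also within each polarization), the compared groups alone, DESeq2 1.42.0, other filters, library size scaling, mitochondrial genes left out, the FDR alone, and each library or replicate number left out.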

Additional observations from a re-analysis of the deposited data

Results flagged for a closer look

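The interaction test singled out genes whose difference between RSM and Veh in M[IL-4] was not the same as in M[0], 183 of them higher and 138 lower with IL-4. The 10 with the largest interaction in the direction named, under the rule on named genes, are given here with their log2 interaction values.

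On the lower side, *Selp* was at -4.92 with 1 count in all over the Veh M[0] libraries, and *Gm38575*, a noncoding gene, was at -4.73 with no counts there, so that both fitted values depend on the prior count. The *Gm38575* call was lost on leaving out Veh M[0] replicate 2 (-4.73) or replicate 3 (-4.73). *Slc7a11* was at -3.12, and was higher with RSM in both polarizations. *Cd24a*, a small surface glycoprotein, was at -2.43, and was not called without the libraries numbered 3 (-2.32). Its log2 fold change was 1.18 in naïve cells and -1.25 with IL-4, the latter not called without RSM replicate 1 (-1.02), RSM replicate 3 (-1.20) or Veh replicate 2 (-0.93). *Hebp2*, a heme-binding protein, was at -2.34, and not called without the libraries numbered 3 (-1.95).

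On the higher side, *Ksr2*, a scaffold of MAP kinase signalling, was at 3.57 and was not called without RSM M[0] replicate 1 (3.15), RSM M[0] replicate 3 (3.12) or Veh M[0] replicate 2 (3.14). *Bmp2* was at 3.43, with log2 fold changes of -2.56 in naïve cells and 0.87 with IL-4, the latter called only without Veh replicate 3 (1.01). *Ms4a4a*, a tetraspan surface protein, was at 3.42, read 39.1, 54.2 and 39.8 CPM in Veh M[0], 9.44, 10.0 and 7.96 CPM in RSM M[0], 95.1, 145 and 125 CPM in Veh M[IL-4] and 218, 304 and 285 CPM in RSM M[IL-4], and so was lower with RSM in M[0] and higher in M[IL-4] (1.14, and 0.99 without Veh M[IL-4] replicate 1). *Gng4* was at 3.26. *Cd300e*, an activating myeloid receptor, was at 3.10, lower with RSM in both polarizations, and not called without RSM M[IL-4] replicate 3 (2.97) or the libraries numbered 2 (2.40) or 3 (3.04).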

How the results depend on the processing

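Against 1655 genes called for RSM over Veh in M[IL-4], the FDR with no fold threshold called 5785. Leaving out libraries gave 1338 to 1732, with 560 to 836 rising and 778 to 896 falling. The replicate block gave 1714 calls (797 rising, 917 falling), and blocks within each polarization 1750. Library size scaling gave 835 rising and 845 falling, with the median of all genes at 0.07. DESeq2 called 719 rising and 892 falling. Leaving out libraries changed the 321 interaction calls to between 128 and 369, lowest without the libraries numbered 3. The 419 calls of RSM against HC3 became 217 to 441, also lowest without those numbered 3. Of 253 named results 225 were called, 199 kept their call and direction under every alternative and 26 lost it under at least 1. Leaving out libraries changed the sign for 3 named genes near 0 that were not called, *Chka* (-0.013 to 0.078), *Abca1* (-0.085 to 0.26) and *Jak1* (-0.0039 to 0.13). The replicate block changed no count of a list by more than 1.5 times other than those given for interferon and autophagy genes, except that with blocks within each polarization 1 dendritic cell marker fell. At this depth 3 counts are 0.154 to 0.162 CPM, so genes near that level carry wide errors. With 3 mice as the source of all groups and bulk RNA, cell composition and level per cell were not separated, and antisense overlap was not resolved.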

Other observations

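Several gene families, some of whose members are also in the lists above, were picked with their values in view. Over all tested genes 5.05% rose and 6.00% fell. Of 8 tested *Clec4* genes, which encode C-type lectins of myeloid cells, 3 rose and 2 fell. *Clec4e*, the receptor Mincle, read 3.77, 6.44 and 4.82 CPM in the Veh libraries and 84.5, 132 and 106 CPM in the RSM libraries (log2 fold change 4.43), and *Clec4n*, the receptor Dectin-2, rose as well (log2 fold change 2.54), while *Clec4b1* fell as given above. Of 10 tested *Ms4a* genes, tetraspan surface proteins, 4 rose and none fell, with *Ms4a6d* at 165, 213 and 194 CPM in the Veh libraries and 528, 623 and 601 CPM in the RSM libraries (log2 fold change 1.62). Of 8 *Gbp* genes 4 rose and 2 fell. *Gbp8* read 0.377, 1.10 and 0.672 CPM in the Veh libraries and 31.3, 52.7 and 38.4 CPM in the RSM libraries, and *Gbp6* also rose (log2 fold change 2.87).

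Among 23 integrin genes 3 rose and 3 fell. *Itgb7*, which pairs with α4 and αE chains, read 12.9, 19.3 and 13 CPM in the Veh libraries and 68.6, 78.4 and 66.8 CPM in the RSM libraries (log2 fold change 2.24), and the collagen-binding chains *Itga1* and *Itga11* rose (log2 fold changes 2.14 and 1.73). Those that fell were *Itgax*, given above, *Itgb8*, which binds latent TGF-β (log2 fold change -1.90), and *Itgal*, the LFA-1 chain CD11a (log2 fold change -1.30, and -0.89 without Veh library 1). Of 31 collagen genes 5 rose and 4 fell, with *Col18a1*, the precursor of endostatin, at 62.3, 42.1 and 56.1 CPM in the Veh libraries and 314, 256 and 261 CPM in the RSM libraries (log2 fold change 2.37). Of 31 kinesin genes 13 fell and 3 rose, with *Kif3a*, a motor of cilia, among those that rose (log2 fold change 1.15). Of 15 histone genes none was called, with log2 fold changes from -1.61 to 1.04. The genes at these ends were low, with means of 0.383 CPM in Veh and 0.124 in RSM for *Hist1h4h*. For *Hist1h1d* the means were 0.559 and 1.15 CPM. How far poly-T selection captured histone mRNA was not tested, so the lack of calls is no evidence of unchanged histone genes.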
